A study of Mus musculus with 2 samples.

Results

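Interferon-stimulated genes are transcribed when cells sense interferon, and they were followed here as a list of 35 members, given by symbol, across the CD45-positive (leukocyte) cells of mouse lung. The matrix held 55401 genes, of which 26985 had at least 1 UMI (unique molecular identifier, 1 counted mRNA molecule), and all 35 members were among them. By role they are 5 genes of the Ifit family, 3 of ISG15 conjugation, 4 transcription factors, 4 sensors of RNA or DNA, 11 antiviral effectors and 8 interferon-inducible GTPases. The samples were live (DAPI-negative) CD45-positive lung cells of Siah1a/2 KO mice and of WT mice, 1 sample each, both taken 7 weeks after a first treatment with urethane, a carcinogen that gives mice lung tumours. The alleles, the age and the number of mice per sample, and any promoter that drives the deletion, are not given in the sources used here. Droplet sequencing of the 3' ends gave 1 joint matrix whose cell barcodes end in 2 or in 1. Neither the labels nor the file headers link an ending to a genotype, so the endings are called library 2 and library 1, and nothing below is a comparison of genotypes.

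Type I and type III interferons bind receptors that act through the kinases JAK1 and TYK2 and assemble a complex with STAT2 and IRF9 that binds the interferon-stimulated response element in the promoters of target genes. Interferon-gamma, made mainly by T and NK cells, acts through JAK1 and JAK2 on genes with gamma-activated sites, and it induces IRF1 and the GTPases strongly. Many targets answer to both kinds of interferon, so a gene's level alone does not tell which of them acted. In lung, macrophages, monocytes and dendritic cells make type I interferon on sensing viral or displaced nucleic acid, and plasmacytoid dendritic cells are known for making it in quantity.

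Promoters of 27 of the 35 members were matched by symbol in RefSeq (build GRCm38.p6, windows of 300 bases that begin 250 bases before the gene's start). Usp18, Zbp1, Mx1, Mx2, Rtp4, Parp14, Gbp4 and Iigp1 have no entry in the table. The core of the response element, GAAA, any 2 bases and GAAA again, read on both strands, occurred in 17 of the 27 member windows (63%), beside 3.99% of 27025 genes with a window. The core of the gamma-activated site, TTC, any 3 bases and GAA, which reads alike on both strands, occurred in 8 of the 27 (29.6%), beside 9.55% of all genes. Windows of 5 members held both cores, and in 1 of them, Bst2, the cores overlapped. Among the GTPases and Irf1 with a window, 6 of 7 held the first core and 4 of 7 the second, beside 11 of 20 and 4 of 20 of the other members. The stretches that follow are from promoters of the members whose levels lead the results. Capitals mark the matched core or its reverse complement, and each stretch runs 5' to 3' on the strand of the gene. The stretches of Ifit3 and Ifit3b are identical, and Irf1 shows the second core. A match describes letters in a window and was not set against any measurement of binding.
Isg15, chr4:156200849-156200908, minus strand: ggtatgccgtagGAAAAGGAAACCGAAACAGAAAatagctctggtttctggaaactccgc
Ifit3, chr19:34583361-34583428, plus strand: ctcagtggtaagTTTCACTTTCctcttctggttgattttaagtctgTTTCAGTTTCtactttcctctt
Ifit3b, chr19:34607757-34607824, plus strand: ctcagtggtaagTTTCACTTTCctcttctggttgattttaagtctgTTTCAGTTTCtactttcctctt
Ifit1, chr19:34640773-34640832, plus strand: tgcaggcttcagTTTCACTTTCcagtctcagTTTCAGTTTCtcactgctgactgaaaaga
Rsad2, chr12:26456525-26456584, minus strand: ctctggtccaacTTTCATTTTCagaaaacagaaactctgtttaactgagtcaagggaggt
Bst2, chr8:71537555-71537614, minus strand: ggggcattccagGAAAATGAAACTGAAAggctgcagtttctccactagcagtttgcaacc
Gbp2, chr3:142620594-142620623, plus strand: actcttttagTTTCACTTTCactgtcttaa
Irgm1, chr11:48871428-48871457, minus strand: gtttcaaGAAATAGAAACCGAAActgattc
Irf1, chr11:53769912-53769971, plus strand: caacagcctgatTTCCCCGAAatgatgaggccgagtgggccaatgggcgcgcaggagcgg

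By GENCODE M21, whose coordinates are of the same build, 33 of the 35 members could be placed by their versioned identifiers. GENCODE starts Irgm1 and Gbp2 further upstream than RefSeq. The Irgm1 stretch above therefore lies inside the gene as GENCODE places it, and that of Gbp2 crosses the GENCODE start. The 5 Ifit genes lie together on chromosome 19 between 34550694 and 34650009, and Gbp2, Gbp3, Gbp5, Gbp7 and Ifi44 on chromosome 3. Irf1, Igtp, Irgm1 and Xaf1 lie on chromosome 11, and Rsad2 and Cmpk2 beside each other on chromosome 12 between 26442746 and 26479837. Transcripts of Ifit3 share 47% of their 60-base words with other genes' transcripts, those of Ifit3b 40.8%, in each case with the other of the pair, so the split of UMIs between these copies is uncertain. The shares were 12.1% for Gbp7, 12% for Herc6, 11.2% for Rtp4, 10% for Igtp and 6.31% for Ifit1, and under 6% for each other member that was measured. Isg15 and Mx1 could not be matched to transcripts by identifier and were not measured, while Mx2 shared 3.28%.

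Library 2 held 6479 barcodes and 59459790 UMIs, and library 1 held 8522 barcodes and 86227008 UMIs, with medians of 7546 and 8303 UMIs per barcode. After leaving out barcodes with fewer than 500 genes or more than 10% mitochondrial UMIs, 6113 cells of library 2 and 8066 of library 1 remained. The same 16-base barcode occurred in both libraries for 11 of the 15001 barcodes. Each cell was named by summed lineage marker genes, none of which is a member, and a name stands for its gate only. T cells were gated by Cd3 genes and Trac, and among them regulatory T cells by Foxp3, CD8 T cells by Cd8a and Cd8b1 and gamma-delta T cells by Trdc and Trgc1. NK cells were gated by Ncr1, Klrb1c and Eomes, macrophages by C1qa, C1qb and C1qc, and classical monocytes by F13a1 and Vcan. Non-classical monocytes, neutrophils, mast cells, B cells, plasmacytoid (pDC), conventional (cDC1, cDC2) and migratory dendritic cells (migratory DC) had their own markers. Cells that met gates of 2 lineages, 433 in library 2 and 606 in library 1, and cells that met none, 195 and 307, belong to no type. The macrophages had almost none of the defining transcripts of alveolar macrophages. Over all of them Siglecf had 1 UMI in library 2 and 3 in library 1, Marco had 0 and 2, and Ear1 and Car4 had 0 in both. Siah1a stood at 12.7 CPM (UMIs of the gene per 1000000 UMIs) in library 2 and 8.48 CPM in library 1, and Siah2 at 27.5 CPM in library 2 and 17.9 CPM in library 1. A 3' read outside a deleted part does not show a deletion, and no genotype was read from these values. With 1 library of each kind there is no replicate, no test and no p-value. Every interval given is an exact one at 95%, for the counting of UMIs or cells alone, and cells are not replicates.

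Neutrophils and classical monocytes carried the most interferon-stimulated transcripts, while B cells, cDC1, mast cells and NK cells carried few. Over all kept cells the 35 members made up 65.5 of every 10000 UMIs in library 2 and 67.3 in library 1. In neutrophils the summed members stood at 169 per 10000 in library 2 and 177 in library 1 and in classical monocytes at 115 and 125. These 2 types came first, in this order, in both libraries. A middle group followed, and its order differed between libraries. In library 2 it held regulatory T cells at 86.2, macrophages at 77.4, pDC at 76.7, cDC2 at 66.2, other T cells at 65.7, non-classical monocytes at 63.5 and gamma-delta T cells at 60.6. In library 1 the same types stood at 71.1, 83.4, 76.5, 83.6, 67.6, 71.3 and 71.6, in the order just given. Within this group several neighbours did not differ beyond counting error: macrophages and pDC in library 2, cDC2 and macrophages in library 1, and gamma-delta T cells, non-classical monocytes and regulatory T cells in library 1.

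CD8 T cells, the most numerous type with 2048 cells in library 2 and 2381 in library 1, stood lower, at 55.7 per 10000 in library 2 and 46.8 in library 1. NK cells, with 1126 and 1278 cells, stood at 32.3 and 35.1. Migratory DC were at 29.9 in library 2 and 58.3 in library 1, mast cells at 26.5 and 35.5, cDC1 at 18.6 and 32, and B cells at 19.8 and 13. The summed members therefore spanned 18.6 in cDC1 to 169 in neutrophils in library 2, and 13 in B cells to 177 in neutrophils in library 1. The pDC sum rested on 1 gene: without Bst2, which is high in these cells in the resting state, it was 29 in library 2 and 29.4 in library 1, in 24 and 25 cells. Isg15 alone gave 13.9% of member UMIs in library 2 and 15.5% in library 1, Bst2 8.83% and 8.5%, and Irf7 6.35% and 7.11%. The GTPases and Irf1 gave 31.7% of the member UMIs of regulatory T cells in library 2 and 31.4% in library 1, against 12.4% and 10.3% in pDC, so the make-up of the sum differed between types as well as its height.

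**Figure D1:**
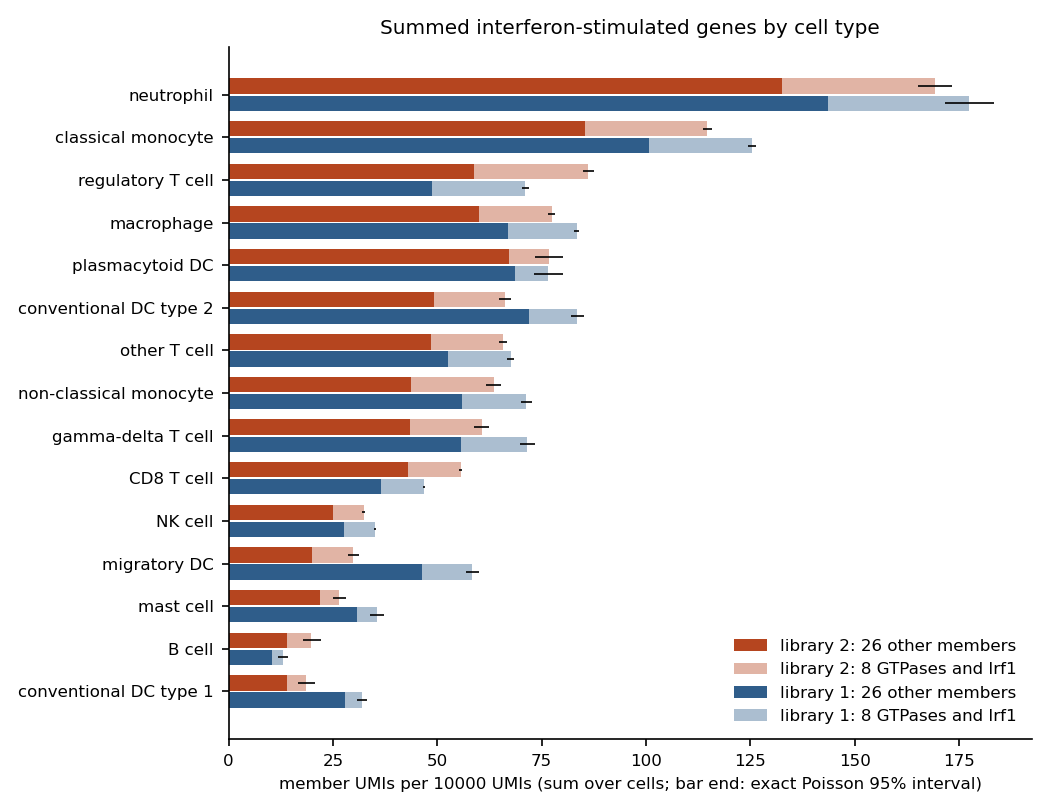
Member UMIs per 10000 UMIs (horizontal axis) in each gated cell type (rows), library 2 above library 1, with the 26 other members in full colour and the 8 GTPases and Irf1 in the pale end of each bar; black lines are exact Poisson 95% intervals. Neutrophils (169 and 177) and classical monocytes lead in both libraries, and B cells stand at 19.8 and 13.

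Single members did not all follow the order of the sum. The highest type was the same in both libraries for 28 of 35 members. It was neutrophils for 12 of them, classical monocytes for 10, regulatory T cells for 3, and pDC, NK cells and gamma-delta T cells for 1 each. For 13 members the highest type stood apart from the next beyond counting error in both libraries. Of the 490 pairs of neighbours in the members' orders over 15 types, the intervals overlapped for 411 in library 2 and for 383 in library 1, so most single steps in the orders given next are within counting error. Levels are CPM of the type. A 3' UMI counts a molecule whatever its length, but the sequence shared with other genes differs from member to member. Levels of different genes therefore compare only roughly. In each role group the 3 members with the most UMIs are given in every type.

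The Ifit proteins bind foreign or unmodified RNA ends and block translation, and their genes are among the first to answer type I interferon. Ifit3 had, in library 2 and library 1, 715 and 617 CPM in neutrophils, 516 and 677 in classical monocytes, 328 and 481 in macrophages and 220.3 and 431 in non-classical monocytes. Ifit3 in lymphocytes of library 2 and library 1 was 379 and 414 CPM in other T cells, 341 and 265 in regulatory T cells, 335 and 261 in CD8 T cells, 309 and 548 in gamma-delta T cells, 83.7 and 43.2 in B cells and 73 and 102 in NK cells. Ifit3 in dendritic and mast cells of library 2 and library 1 was 230.3 and 613 CPM in cDC2, 27.5 and 16.3 in pDC, 11.9 and 121 in migratory DC, 10.2 and 40.6 in cDC1 and 4.69 and 59.6 in mast cells. For Ifit3, neutrophils and classical monocytes were the first 2 types in both libraries, and each of the 4 T cell types exceeded NK cells.

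Ifit2 had, in library 2 and library 1, 443 and 611 CPM in classical monocytes, 390.0 and 352 in neutrophils, 235 and 320.1 in macrophages and 223 and 357 in non-classical monocytes. Ifit2 in lymphocytes of library 2 and library 1 was 119.7 and 111 CPM in CD8 T cells, 117 and 82.4 in regulatory T cells, 104 and 155 in other T cells, 89.4 and 187 in gamma-delta T cells, 81.5 and 76.1 in NK cells and 17.9 and 24.3 in B cells. Ifit2 in dendritic and mast cells of library 2 and library 1 was 222 and 362 CPM in cDC2, 50.6 and 95 in migratory DC, 31.4 and 94 in pDC, 11.7 and 7.94 in mast cells and 10.2 and 123 in cDC1. Ifit2, an RNA-binding member linked to cell death in infected cells, was led by the same 5 types in both libraries, neutrophils, both kinds of monocyte, macrophages and cDC2, with every lymphocyte type lower. Ifit1 had, in library 2 and library 1, 700.5 and 631 CPM in neutrophils, 349 and 409 in classical monocytes, 168 and 179 in non-classical monocytes and 165 and 187 in macrophages. Ifit1 in lymphocytes of library 2 and library 1 was 398 and 260.2 CPM in regulatory T cells, 282 and 257 in other T cells, 224 and 147 in CD8 T cells, 211 and 278 in gamma-delta T cells, 60.2 and 66.3 in NK cells and 29.9 and 16.2 in B cells. Ifit1 in dendritic and mast cells of library 2 and library 1 was 205 and 259 CPM in cDC2, 50.6 and 108 in migratory DC, 42.2 and 95.3 in mast cells, 25.4 and 33.6 in cDC1 and 23.6 and 4.08 in pDC. Ifit1, which recognises RNA caps that lack methylation, differed from Ifit2 in its T cells. Regulatory T cells came second in library 2, and regulatory, other and gamma-delta T cells all exceeded macrophages in both libraries. Ifit3b, the near copy of Ifit3, was highest in neutrophils at 355 CPM in library 2 and 372 in library 1, though the split between the copies is uncertain. Ifit1bl1, a further family gene, had 103 CPM in library 2 and 95.6 in library 1 in classical monocytes and 89.2 CPM in library 2 and 122 in library 1 in cDC2, the first 2 types in both.

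ISG15 is a ubiquitin-like protein that is joined to other proteins, HERC6 is the ligase of this step in mice, and USP18 removes ISG15 and also damps the type I receptor. Isg15 had, in library 2 and library 1, 4173 and 4395 CPM in neutrophils, 1787 and 2266 in classical monocytes, 1207 and 1421 in macrophages and 629 and 960.3 in non-classical monocytes. Isg15 in lymphocytes of library 2 and library 1 was 1030.4 and 812 CPM in regulatory T cells, 746 and 872 in other T cells, 655 and 541 in CD8 T cells, 563 and 909.8 in gamma-delta T cells, 324 and 382 in NK cells and 71.8 and 40.5 in B cells. Isg15 in dendritic and mast cells of library 2 and library 1 was 1045 and 1444 CPM in cDC2, 719.6 and 1168 in mast cells, 677 and 1926 in migratory DC, 338 and 433 in pDC and 259 and 508 in cDC1. Isg15 was the most abundant member over all cells and the only one above 1000 CPM in both libraries in neutrophils, classical monocytes, macrophages and cDC2 alike. Usp18 had, in library 2 and library 1, 152 and 103 CPM in neutrophils, 149 and 153 in classical monocytes, 85.7 and 84.3 in non-classical monocytes and 83.1 and 122 in macrophages. Usp18 in lymphocytes of library 2 and library 1 was 117 and 197 CPM in gamma-delta T cells, 115 and 148 in NK cells, 111 and 140.0 in other T cells, 107 and 105 in regulatory T cells, 92.5 and 90.6 in CD8 T cells and 12 and 10.8 in B cells. Usp18 in dendritic and mast cells of library 2 and library 1 was 111 and 176 CPM in cDC2, 69.9 and 113 in migratory DC, 51.1 and 98 in pDC, 44.5 and 99.3 in mast cells and 20.3 and 102 in cDC1. Usp18 was spread more evenly than Isg15, its first and second types overlapped in both libraries, and NK cells exceeded CD8 T cells, the reverse of Isg15. Herc6 had, in library 2 and library 1, 124 and 201 CPM in neutrophils, 118 and 120.3 in classical monocytes, 60.9 and 65.9 in macrophages and 55.4 and 84.3 in non-classical monocytes. Herc6 in lymphocytes of library 2 and library 1 was 111 and 113 CPM in other T cells, 93.8 and 83 in CD8 T cells, 86.8 and 83.8 in regulatory T cells, 82.1 and 124 in gamma-delta T cells, 69.8 and 75.8 in NK cells and 29.9 and 27 in B cells. Herc6 in dendritic and mast cells of library 2 and library 1 was 77.3 and 103 CPM in migratory DC, 60.7 and 78.3 in cDC2, 27.5 and 8.17 in pDC, 20.3 and 40.6 in cDC1 and 16.4 and 21.8 in mast cells. Herc6 in T cells stood close to its level in classical monocytes, and 13 of the 14 neighbouring pairs of types in its order overlapped in library 2.

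IRF7 is the transcription factor that amplifies type I interferon, IRF9 and STAT2 are parts of the response complex, and IRF1 answers mainly to interferon-gamma. Irf7 had, in library 2 and library 1, 745 and 777 CPM in macrophages, 733 and 382 in neutrophils, 714 and 825 in classical monocytes and 445 and 578 in non-classical monocytes. Irf7 in lymphocytes of library 2 and library 1 was 403 and 296 CPM in regulatory T cells, 348 and 344 in gamma-delta T cells, 324 and 391 in other T cells, 229.8 and 224 in CD8 T cells, 197 and 226 in NK cells and 119.6 and 116 in B cells. Irf7 in dendritic and mast cells of library 2 and library 1 was 458 and 715 CPM in cDC2, 425 and 674 in pDC, 174 and 374 in migratory DC, 153 and 538 in cDC1 and 84.4 and 145 in mast cells. Irf7 was high in classical monocytes and macrophages, and in pDC, which are known to hold it before any stimulus. Mast and B cells held the least in both libraries. Irf1 had, in library 2 and library 1, 740.2 and 626 CPM in neutrophils, 670.2 and 458 in non-classical monocytes, 405 and 358 in classical monocytes and 173 and 162 in macrophages. Irf1 in lymphocytes of library 2 and library 1 was 381 and 310.2 CPM in regulatory T cells, 333 and 274 in gamma-delta T cells, 312 and 247 in other T cells, 235 and 186 in CD8 T cells, 209 and 72.9 in B cells and 146 and 128 in NK cells. Irf1 in dendritic and mast cells of library 2 and library 1 was 427 and 345 CPM in migratory DC, 366 and 195 in cDC2, 354 and 388 in pDC, 102 and 111 in cDC1 and 39.9 and 61.6 in mast cells. Irf1 had another order: non-classical monocytes came second in both libraries, migratory DC were among the first 5 in both, and macrophages stood below every T cell type. Irf9 had, in library 2 and library 1, 156 and 166 CPM in neutrophils, 89.7 and 92.3 in non-classical monocytes, 77.2 and 91.3 in classical monocytes and 65.6 and 68.9 in macrophages. Irf9 in lymphocytes of library 2 and library 1 was 161 and 94.5 CPM in B cells, 101 and 102 in regulatory T cells, 92.2 and 80.9 in other T cells, 90.9 and 93.9 in gamma-delta T cells, 80.9 and 73 in CD8 T cells and 48.8 and 55.1 in NK cells. Irf9 in dendritic and mast cells of library 2 and library 1 was 106 and 110.3 CPM in pDC, 76 and 106 in cDC2, 53.5 and 74.5 in migratory DC, 37.5 and 41.7 in mast cells and 30.5 and 93.9 in cDC1. Irf9 was flat: all 15 types lay within 30.5 to 161 CPM in library 2 and 41.7 to 166 CPM in library 1, with neutrophils among the first 2 in both. Stat2 was highest in classical monocytes, at 164 CPM in library 2 and 170.1 in library 1, and reached 27.6 CPM in library 2 and 30.5 in library 1 in NK cells.

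Among the sensors, ZBP1 binds Z-form nucleic acid and starts inflammatory cell death, DDX58 (RIG-I) and IFIH1 (MDA5) bind viral RNA, and EIF2AK2 (PKR) stops translation on double-stranded RNA. Zbp1 had, in library 2 and library 1, 594 and 571 CPM in classical monocytes, 415 and 284 in neutrophils, 379 and 334 in macrophages and 289 and 341 in non-classical monocytes. Zbp1 in lymphocytes of library 2 and library 1 was 456 and 418 CPM in regulatory T cells, 412 and 402 in gamma-delta T cells, 389 and 371 in other T cells, 354 and 292 in CD8 T cells, 203 and 200.4 in NK cells and 71.8 and 51.3 in B cells. Zbp1 in dendritic and mast cells of library 2 and library 1 was 339 and 325 CPM in cDC2, 178 and 166 in cDC1, 113 and 191 in migratory DC, 110.1 and 85.8 in pDC and 98.5 and 109 in mast cells. Zbp1 was the fourth most abundant member over all cells of library 2 and the fifth in library 1, and was high in T cells too, regulatory T cells standing above macrophages in both libraries. Ddx58 had, in library 2 and library 1, 130.4 and 129 CPM in classical monocytes, 114 and 147 in neutrophils, 85.7 and 92.3 in non-classical monocytes and 71.1 and 83.1 in macrophages. Ddx58 in lymphocytes of library 2 and library 1 was 99 and 99.4 CPM in other T cells, 89.5 and 84.1 in NK cells, 89.4 and 114 in gamma-delta T cells, 85.9 and 76.8 in CD8 T cells, 84.1 and 81.8 in regulatory T cells and 53.8 and 43.2 in B cells. Ddx58 in dendritic and mast cells of library 2 and library 1 was 73.1 and 74.3 CPM in cDC2, 32.8 and 67.5 in mast cells, 19.3 and 33.5 in migratory DC, 10.2 and 6.95 in cDC1 and 0 and 12.3 in pDC. No step between neighbours in the order of Ddx58 was beyond counting error, since all 14 neighbouring pairs of types overlapped in both libraries. Types further apart in that order still differed, such as classical monocytes at 130.4 and 129 CPM and macrophages at 71.1 and 83.1 CPM. Eif2ak2 had, in library 2 and library 1, 165 and 159 CPM in classical monocytes, 107 and 107 in non-classical monocytes, 97.2 and 110.2 in macrophages and 59.6 and 39.2 in neutrophils. Eif2ak2 in lymphocytes of library 2 and library 1 was 96.8 and 72.6 CPM in regulatory T cells, 74.4 and 78.5 in NK cells, 73.8 and 73.1 in other T cells, 67.3 and 66 in CD8 T cells, 64.5 and 70.2 in gamma-delta T cells and 35.9 and 40.5 in B cells. Eif2ak2 in dendritic and mast cells of library 2 and library 1 was 81.2 and 107 CPM in cDC2, 61 and 74.2 in cDC1, 47.2 and 57.2 in pDC, 46.9 and 41.7 in mast cells and 35.7 and 61.5 in migratory DC. Eif2ak2 was highest in classical monocytes in both libraries, and NK and T cells lay within 64.5 to 96.8 CPM in library 2 and 66 to 78.5 CPM in library 1. Ifih1 was highest in classical monocytes too, at 183 CPM in library 2 and 185 in library 1.

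Of the antiviral effectors, BST2 (tetherin) holds budding virus at the cell surface, RSAD2 (viperin) makes a chain-ending nucleotide, and ISG20 is an exonuclease. Bst2 had, in library 2 and library 1, 838 and 774 CPM in macrophages, 471 and 547 in classical monocytes, 278 and 132 in neutrophils and 212 and 341 in non-classical monocytes. Bst2 in lymphocytes of library 2 and library 1 was 727 and 607 CPM in regulatory T cells, 572 and 597 in gamma-delta T cells, 558 and 489.5 in CD8 T cells, 552 and 567 in other T cells, 320.5 and 353 in NK cells and 161 and 135 in B cells. Bst2 in dendritic and mast cells of library 2 and library 1 was 4776 and 4706 CPM in pDC, 649 and 705 in mast cells, 562 and 836 in cDC2, 289.9 and 398 in cDC1 and 281 and 438 in migratory DC. Bst2 in pDC stood far above the next type in both libraries and T cells lay within the range of the monocytes and macrophages. Rsad2 had, in library 2 and library 1, 2228 and 4018 CPM in neutrophils, 717 and 1152 in classical monocytes, 316 and 399.6 in macrophages and 303 and 379 in non-classical monocytes. Rsad2 in lymphocytes of library 2 and library 1 was 178 and 229 CPM in other T cells, 157 and 104 in regulatory T cells, 122 and 102 in CD8 T cells, 113 and 188 in gamma-delta T cells, 75.7 and 79.7 in NK cells and 12 and 18.9 in B cells. Rsad2 in dendritic and mast cells of library 2 and library 1 was 192 and 284 CPM in cDC2, 142 and 77.6 in pDC, 42.2 and 105 in mast cells, 38.7 and 199.7 in migratory DC and 10.2 and 49.8 in cDC1. Rsad2 was uneven: the first 3 types in both libraries were neutrophils, classical monocytes and macrophages, and every lymphocyte type was below cDC2. Isg20 had, in library 2 and library 1, 763 and 724 CPM in neutrophils, 216 and 207 in classical monocytes, 118 and 105 in macrophages and 113 and 116 in non-classical monocytes. Isg20 in lymphocytes of library 2 and library 1 was 530.4 and 448 CPM in regulatory T cells, 292 and 220.1 in CD8 T cells, 271 and 276 in other T cells, 238 and 244 in gamma-delta T cells, 129.7 and 135 in NK cells and 29.9 and 40.5 in B cells. Isg20 in dendritic and mast cells of library 2 and library 1 was 139.7 and 217 CPM in cDC2, 46.9 and 41.7 in mast cells, 40.7 and 53.3 in cDC1, 23.6 and 44.9 in pDC and 11.9 and 83.1 in migratory DC. Isg20 was a gene of neutrophils and regulatory T cells, which took the first and second place in both libraries, with CD8 T cells above macrophages.

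The other 8 effectors are given where they were high. Rtp4, a transmembrane protein that inhibits viral replication, reached 708 CPM in library 2 and 602 in library 1 in neutrophils. Cmpk2, a mitochondrial nucleotide kinase encoded beside Rsad2, reached 179 CPM in library 2 and 206 in library 1 in the same cells. Mx1 and Mx2, dynamin-like GTPases against viral nucleocapsids, were found in classical monocytes: Mx1 at 216 CPM in library 2 and 233 in library 1, and Mx2 at 37.6 CPM in library 2 and 47.7 in library 1. Parp14, an ADP-ribosyltransferase, was highest there as well, at 402 CPM in library 2 and 387 in library 1. Samd9l, a translation inhibitor, had 211 CPM in library 2 and 204 in library 1 in classical monocytes. Xaf1, a cell-death factor, had 195 CPM in library 2 and 211 in library 1 there. Ifi44 was the exception in both libraries, with NK cells first at 76 CPM in library 2 and 109 in library 1. Its level was 10.3 CPM in library 2 and 14.3 in library 1 in CD8 T cells and 10.6 CPM in library 2 and 17.9 in library 1 in classical monocytes.

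The guanylate-binding proteins (Gbp genes) and the immunity-related GTPases (Iigp1, Igtp, Irgm1) take part in defence against intracellular microbes. Gbp2 had, in library 2 and library 1, 1331 and 1424 CPM in neutrophils, 1179 and 956 in classical monocytes, 493 and 452 in macrophages and 433 and 405 in non-classical monocytes. Gbp2 in lymphocytes of library 2 and library 1 was 239 and 188 CPM in gamma-delta T cells, 194 and 142 in regulatory T cells, 189 and 126 in other T cells, 126 and 100.2 in CD8 T cells, 68.7 and 63.7 in NK cells and 59.8 and 45.9 in B cells. Gbp2 in dendritic and mast cells of library 2 and library 1 was 383 and 218 CPM in cDC2, 167 and 343 in migratory DC, 126 and 12.3 in pDC, 86.5 and 35.9 in cDC1 and 56.3 and 47.7 in mast cells. Gbp2 was steep like Rsad2, high in neutrophils and classical monocytes and lower in T cells and pDC. Gbp7 had, in library 2 and library 1, 387 and 323 CPM in neutrophils, 316 and 258 in classical monocytes, 236 and 228 in macrophages and 165 and 137 in non-classical monocytes. Gbp7 in lymphocytes of library 2 and library 1 was 479 and 413 CPM in regulatory T cells, 277 and 292 in other T cells, 264 and 221 in CD8 T cells, 255 and 274 in gamma-delta T cells, 175 and 191 in NK cells and 71.8 and 21.6 in B cells. Gbp7 in dendritic and mast cells of library 2 and library 1 was 166 and 164 CPM in cDC2, 115 and 121 in mast cells, 98.3 and 53.1 in pDC, 40.7 and 11.6 in cDC1 and 4.46 and 34.5 in migratory DC. Gbp7 was led by regulatory T cells in both libraries, and CD8 T cells stood above macrophages in library 2 and close to them in library 1. Igtp had, in library 2 and library 1, 330.4 and 323 CPM in neutrophils, 164 and 162 in classical monocytes, 136 and 113 in macrophages and 129 and 93.6 in non-classical monocytes. Igtp in lymphocytes of library 2 and library 1 was 502 and 424 CPM in regulatory T cells, 299 and 268 in gamma-delta T cells, 269 and 246 in other T cells, 204 and 148 in CD8 T cells, 70.8 and 75.7 in NK cells and 23.9 and 18.9 in B cells. Igtp in dendritic and mast cells of library 2 and library 1 was 122 and 116 CPM in cDC2, 61 and 27.8 in cDC1, 46.9 and 65.5 in mast cells, 23.6 and 16.3 in pDC and 17.8 and 41 in migratory DC. Igtp put regulatory T cells first as well, with neutrophils, gamma-delta T cells and other T cells next in both libraries.

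Iigp1 shared with Igtp the first place of regulatory T cells, but not the order of CD8 T cells and macrophages. Regulatory T cells had Iigp1 at 533 CPM in library 2 and 417 in library 1, CD8 T cells 86.3 CPM in library 2 and 79.4 in library 1, and macrophages 244 CPM in library 2 and 281 in library 1. Gbp4 was highest in gamma-delta T cells, at 258 CPM in library 2 and 236 in library 1, with 184 CPM in library 2 and 144 in library 1 in CD8 T cells. Gbp3 was highest in classical monocytes, at 231 CPM in library 2 and 182 in library 1. Gbp5 was highest in neutrophils, at 253 CPM in library 2 and 318 in library 1, and so was Irgm1, at 308 CPM in library 2 and 245 in library 1. So 4 of the 8 GTPases peaked in a T cell type in both libraries (Gbp7, Iigp1, Igtp and Gbp4), and no member outside the GTPases did so in both. The first type overlapped the next for Gbp7 in both libraries, for Igtp in library 1 and for Gbp4 in library 2. Of these genes only Iigp1 had its first type apart in both.

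**Figure D2:**
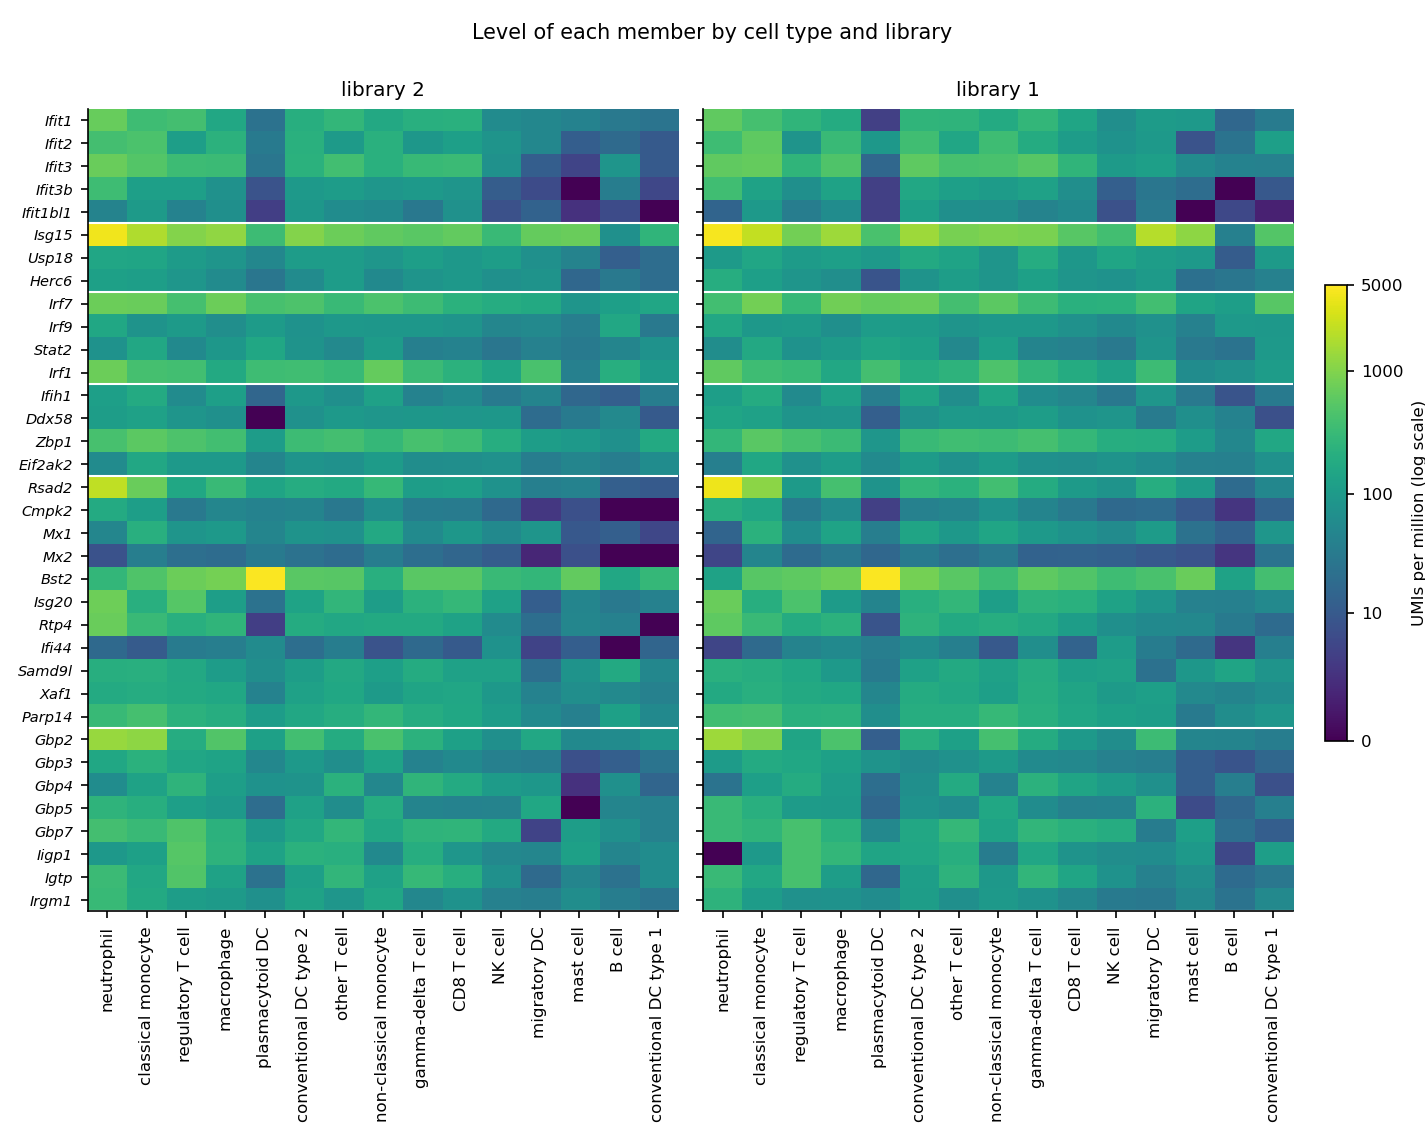
Level of each of the 35 members (rows, ordered by role, white lines between roles) in each of 15 gated types (columns, ordered by the member sum of library 2), as CPM on a log colour scale, library 2 at left and library 1 at right. Isg15 is bright across the myeloid types, Bst2 peaks in plasmacytoid DC (4776 and 4706 CPM), and Igtp and Gbp7 peak in regulatory T cells.

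Within every type the members were unevenly shared between cells. Each cell was thinned at random to 3000 UMIs, which left out shallower cells, and a cell with at least 15 member UMIs of the 3000 was called high. Over the cells of all 15 types the share of high cells was 38.7% (1908 of 4928 cells, interval 37.4 to 40.1%) in library 2 and 38.3% (2421 of 6314 cells, interval 37.1 to 39.6%) in library 1. Cells of the same type with an equal chance per UMI would have a variance close to the mean. Over the cells of all 15 types together, whose means also differ, the variance was 31.1 times the mean in library 2 and 32.8 times in library 1. In macrophages it was 28.1 and 39.6 times, in classical monocytes 41.4 and 44.5, in CD8 T cells 26.8 and 23.4, in NK cells 16.4 and 15.4, and in pDC only 3.39 and 3.26. The tenth of cells with the highest sums held 41.3% of member UMIs in NK cells of library 2 and 39.2% in library 1, 39.7% and 39.9% in CD8 T cells, and 35.4% and 39.4% in macrophages. The highest cell of these types was a neutrophil with 248 member UMIs of 3000 in library 2, and in library 1 a classical monocyte with 212.

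High cells made up 87.5% (21 of 24 cells, interval 67.6 to 97.3%) of pDC in library 2 and 78.3% (18 of 23 cells, interval 56.3 to 92.5%) in library 1, a share that rests on Bst2. In classical monocytes it was 61% (283 of 464 cells, interval 56.4 to 65.5%) in library 2 and 62.7% (370 of 590 cells, interval 58.7 to 66.6%) in library 1. In macrophages it was 54.3% (191 of 352 cells, interval 48.9 to 59.6%) in library 2 and 52.6% (354 of 673 cells, interval 48.7 to 56.4%) in library 1. Monocytes and macrophages therefore held high and low cells side by side, with medians of 20 and 22 member UMIs in classical monocytes and 17 and 16 in macrophages, close to the level of 15. Regulatory T cells were high in 66.7% (134 of 201 cells, interval 59.7 to 73.1%) of library 2 and 57.6% (215 of 373 cells, interval 52.4 to 62.7%) of library 1. CD8 T cells were high in 37.3% (740 of 1986 cells, interval 35.1 to 39.4%) of library 2 and 32.3% (741 of 2294 cells, interval 30.4 to 34.3%) of library 1. For NK cells the shares were 20.7% (224 of 1082 cells, interval 18.3 to 23.2%) in library 2 and 22% (273 of 1243 cells, interval 19.7 to 24.4%) in library 1. Regulatory T cells thus stood with classical monocytes and the other T cell types lower, with gamma-delta T cells at 48.9% and 51.3% and other T cells at 42% and 45.6%.

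In dendritic cells, cDC2 were high in 43.8% (42 of 96 cells, interval 33.6 to 54.3%) of library 2 and 56.2% (63 of 112 cells, interval 46.6 to 65.6%) of library 1. Migratory DC were high in 17.3% (9 of 52 cells, interval 8.23 to 30.3%) of library 2 and 38.5% (25 of 65 cells, interval 26.7 to 51.4%) of library 1. No cDC1 of library 2 was high (0 of 8 cells, interval 0 to 36.9%), against 24.3% (9 of 37 cells, interval 11.8 to 41.2%) in library 1. Non-classical monocytes were high in 35.1% of cells in library 2 and 32.7% in library 1, mast cells in 23.1% and 23%, and B cells in 10% and 1.41%. The neutrophil shares, 57.6% (19 of 33 cells, interval 39.2 to 74.5%) and 71.4% (15 of 21 cells, interval 47.8 to 88.7%), leave out most neutrophils, since 103 of library 2 and 56 of library 1 had under 3000 UMIs. High cells had fewer UMIs than other cells before thinning, by their medians, in 8 of the 14 types of library 2 that held both and in 9 of 15 of library 1. They had a median of 11612 UMIs, against 12965 in other cells, in macrophages of library 2 and 11602 against 13940 in those of library 1. In CD8 T cells these medians were 6749.5 against 7468 in library 2 and 7361 against 8660 in library 1. High cells were the deeper ones in non-classical monocytes, at 7746 against 6883 in library 2 and 7695 against 6418 in library 1. Without thinning, the share of cells at the same proportion of member UMIs or more was 37.7% in library 2 and 37.1% in library 1.

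**Figure D3:**
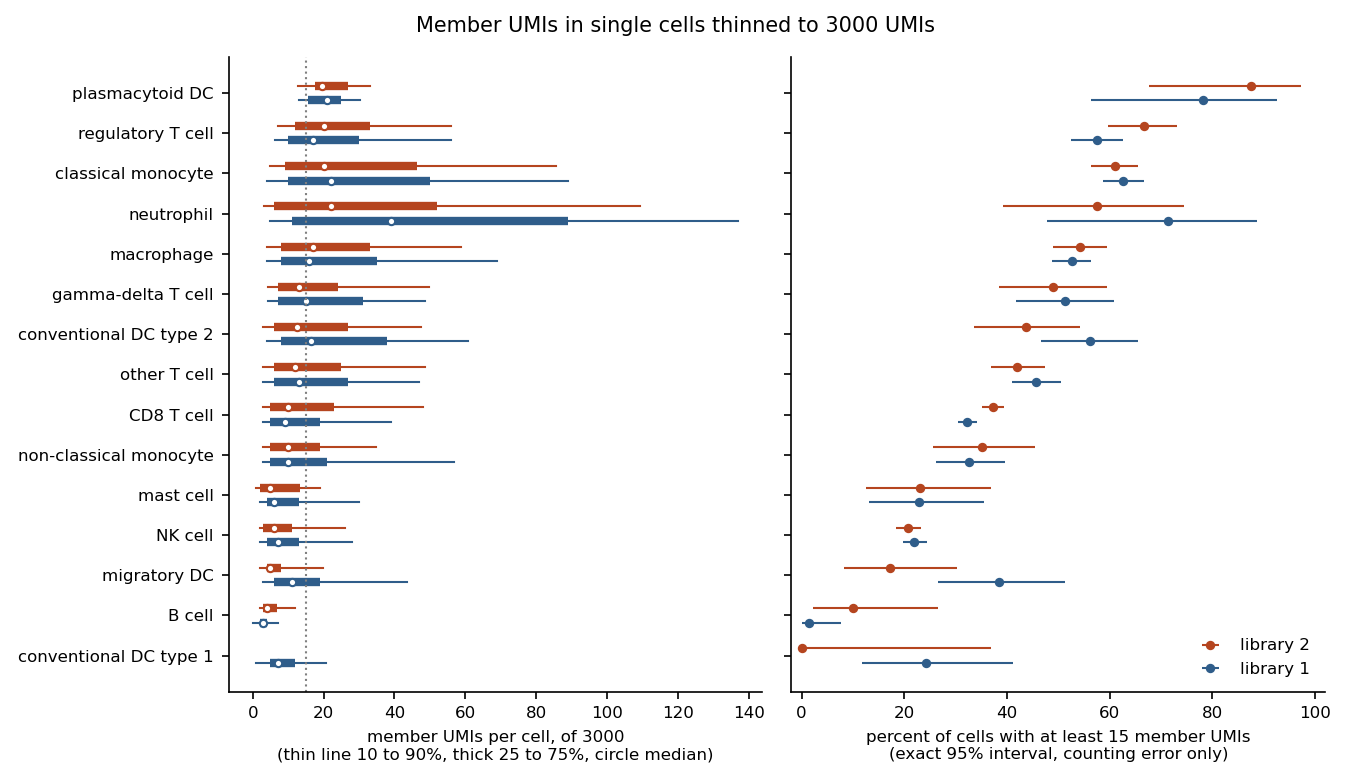
Left, member UMIs per cell after thinning to 3000 UMIs in each type (circle median, thick line 25 to 75%, thin line 10 to 90%, dotted line at 15); right, percent of cells with at least 15, with exact 95% intervals. Library 2 is drawn above library 1; the intervals of CD8 T cells (37.3% and 32.3%) are the only pair that does not overlap, and quantiles of conventional DC type 1 of library 2 are not drawn because only 8 cells remained.

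The members varied together from cell to cell. In thinned macrophages, Ifit3 was found in 48.5% of the 233 cells with an Isg15 UMI in library 2, against 6.72% of the 119 cells without one. In library 1 the shares were 51.7% of 451 and 9.46% of 222 macrophages. In CD8 T cells Ifit3 was found in 58.1% of Isg15-positive and 11.3% of Isg15-negative cells in library 2, and in 53.5% and 13.7% in library 1. Rsad2 split in the same way, with 46.7% and 5.67% in classical monocytes of library 2 and 53.9% and 9.62% in those of library 1. Irf7 was less divided: 84.1% of Isg15-positive and 52.1% of Isg15-negative macrophages had it in library 2, and 80.3% and 50% in library 1. Shares of cells with a UMI include free RNA taken up in droplets. A C1q transcript, a macrophage product, was found in 10.2% of thinned NK cells of library 2 and 25.4% of library 1, and in 13.7% and 30.3% of thinned CD8 T cells. At full depth (median 8882 and 10400 UMIs) the C1q share of NK cells was 25.9% and 61.8%. C1q transcripts are far more abundant at their source, with 15455 CPM for macrophages of library 2 and 14628 CPM for those of library 1. The highest level of any type was 715 and 677 CPM for Ifit3, and 2228 and 4018 CPM for Rsad2. C1q shares therefore set no background level for these 2 genes. How much of their shares in Isg15-negative cells was free RNA was not tested.

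Across cells of a type, each member's UMIs were set against the sum of the other 34, as a description over cells of the same library and depth. The median Pearson r over members was 0.42 in library 2 and 0.46 in library 1 for macrophages, 0.48 and 0.46 for classical monocytes, 0.43 and 0.42 for CD8 T cells, and 0.37 and 0.35 for NK cells. Isg15 had the highest r in each of the 5 types examined, from 0.65 and 0.67 in NK cells of library 2 and library 1 to 0.79 and 0.77 in classical monocytes. Ifit3 came close, with 0.73 and 0.69 in CD8 T cells. Irf1 and Irf9 stood at the other end, with 0.00 and 0.16 for Irf1 and 0.05 and 0.04 for Irf9 in classical monocytes, and 0.12 and 0.08 for Irf1 in CD8 T cells. Ifi44 was tied to the sum in NK cells, at 0.47 and 0.50, and little in CD8 T cells, at 0.13 and 0.16. However, it was found in 15.7% and 20.6% of thinned NK cells and in only 2.06% and 2.92% of thinned CD8 T cells. So few cells with a UMI limit the r, and the 2 types cannot be compared by it. The GTPases and Irf1, summed, followed the 26 other members within cells with an r of 0.54 and 0.50 in macrophages, 0.61 and 0.62 in classical monocytes, and 0.57 and 0.54 in CD8 T cells.

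Between the libraries the members did not move as 1 block. Irf1, by role a transcription factor, was put with the GTPases for this comparison. The lists were chosen with earlier results of these data known, so a division between them is a description only. In 6 of 13 types the summed GTPases and Irf1 were higher in library 2 and the other members lower: macrophages, both kinds of monocyte, cDC2, gamma-delta T cells and other T cells. In CD8 T cells, regulatory T cells and B cells both were higher. In NK cells, mast cells and neutrophils the summed other members were lower and the GTPases and Irf1 within counting error, and in migratory DC both were lower. In neutrophils this held for the sum and not for most genes. Of 20 other members tested there, 3 were higher, beside 14.7% of all genes, and 2 lower, beside 9.17%. Their median log2 ratio was 0.024, while the abundant Rsad2 had 2228 CPM in library 2 and 4018 in library 1. The comparison covers the 13 types with at least 50 cells in each library, and gives the log2 ratio of library 2 over library 1 with its counting interval. Member sums varied between cells by much more than counting error, with a variance 41.4 and 44.5 times the mean in classical monocytes of library 2 and library 1. The intervals leave this spread out and are too narrow for another draw of cells. Members also varied together from cell to cell, so their calls are not independent of each other. Summed over all 35, the members were above a ratio of 1 in 3 types and below it in 10. The sum of the GTPases and Irf1 was above it in 9 types, below it in 1, and within counting error of it in 3. Some of these calls depended on the processing: in gamma-delta T cells the call held at 1 of 5 other settings, and in other T cells it was lost with cells thinned, at 0.081. The neutrophil sum went to -0.75 (interval -0.99 to -0.51) when thinned, and the NK sum to -0.054 (interval -0.095 to -0.013) on the median scale. The sum of the other 26 members was above it in 3 types and below it in 10. As a share of all member UMIs, which depends on the other members too, the GTPases and Irf1 gave 25.8% in library 2 and 13.9% in library 1 in cDC2, and 22.9% and 21.9% in CD8 T cells. Each library is 1 sample, so whether such a difference belongs to the genotypes, to the animals or to the preparation cannot be told apart. Members have more UMIs than most genes, with medians over both libraries of 1778 against 354 for all genes tested in macrophages and 4665 against 747 in CD8 T cells, and their intervals are narrower for that reason. Each member with at least 50 UMIs in a type is counted as higher or lower where its interval excludes 0, beside the share of all such genes of the type that did so.

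In macrophages 9 of the 35 members tested were higher in library 2, beside 13.5% of all genes tested, and 17 were lower, beside 10.3%. The log2 ratio of the member sum, 77.4 per 10000 in library 2 and 83.4 in library 1, was -0.11 (interval -0.13 to -0.09). That ratio depended on the gate: it was -0.0095 with the marker level doubled. It was 0.029, the other way, when cells of 2 lineages were put in the type with the larger marker share. In that last setting 16 members were higher and 10 lower. The other 26 members stood at -0.16 and the GTPases and Irf1 at 0.07. Ifit3b was lowest in ratio, with 74.5 CPM in library 2 and 133 in library 1, with a ratio of -0.83 (interval -1.01 to -0.66). Ifi44 had 37.2 CPM in library 2 and 56.7 in library 1, at -0.61 (interval -0.86 to -0.36). Mx2 had 19.6 CPM in library 2 and 29 in library 1, at -0.56 (interval -0.92 to -0.21). The highest ratios were led by a GTPase, Irgm1, with 104 CPM in library 2 and 76.9 in library 1 and a ratio of 0.44 (interval 0.27 to 0.60). Igtp stood at 0.26 (interval 0.12 to 0.41) and Zbp1 at 0.18 (interval 0.10 to 0.27). High cells were as frequent in library 2 as in library 1 within counting error, 54.3% and 52.6%, while the sum was lower.

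In classical monocytes 6 of the 35 members tested were higher in library 2, beside 12.4% of all genes tested, and 11 were lower, beside 9.23%. The log2 ratio of the member sum, 115 per 10000 in library 2 and 125 in library 1, was -0.13 (interval -0.15 to -0.11), which was -0.011 at the doubled marker level, where 10 members were higher and 4 lower. Ifi44 had 10.6 CPM in library 2 and 17.9 in library 1, at -0.75 (interval -1.30 to -0.23). Rsad2 had 717 CPM in library 2 and 1152 in library 1, at -0.69 (interval -0.75 to -0.62). Ifit2 had 443 CPM in library 2 and 611 in library 1, at -0.46 (interval -0.54 to -0.38). The largest ratios on the higher side were those of 3 GTPases. Irgm1 had 175 CPM in library 2 and 111 in library 1, at 0.65 (interval 0.49 to 0.81), while Gbp3 stood at 0.34 (interval 0.21 to 0.47) and Iigp1 at 0.34 (interval 0.16 to 0.51). All 6 members higher in library 2 in these cells were GTPases or Irf1, and all 11 lower ones were among the other members, a split described with lists that were not chosen blind to these data. The sums of the lists were 0.25 for the GTPases and Irf1 and -0.24 for the others, and both kept their sign at each of 5 other settings of filter, gate, scale and depth.

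Non-classical monocytes and cDC2 showed the same division. In non-classical monocytes 6 of the 34 members tested were higher in library 2, beside 7.33% of all genes tested, and 8 were lower, beside 6.58%. The extremes were Ifit3 at -0.96, Bst2 at -0.68 and Ifit2 at -0.67 against Iigp1 at 0.69, Irgm1 at 0.60 and Irf1 at 0.55. For cDC2, 5 of the 35 members tested were higher in library 2, beside 9.65% of all genes tested, and 19 were lower, beside 8.66%. Here Ifit3 had 230.3 CPM in library 2 and 613 in library 1, with a ratio of -1.41 (interval -1.60 to -1.23). Irf1 had 366 CPM in library 2 and 195 in library 1, at 0.91 (interval 0.70 to 1.12). Gbp2 had 383 CPM in library 2 and 218 in library 1, at 0.81 (interval 0.61 to 1.02). The cDC2 sums stood at 0.56 for the GTPases and Irf1 and -0.55 for the other members, in 101 cells of library 2 and 117 of library 1.

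Migratory DC differed most in the sum, 29.9 per 10000 in library 2 and 58.3 in library 1, with a ratio of -0.96 (interval -1.04 to -0.89) on the log2 scale. There 1 of the 27 members tested was higher in library 2, beside 14.3% of all genes tested, and 19 were lower, beside 9.01%. Ifit3 had 11.9 CPM in library 2 and 121 in library 1, with a ratio of -3.26 (interval -4.59 to -2.32). Rsad2 had 38.7 CPM in library 2 and 199.7 in library 1, at -2.35 (interval -3.02 to -1.77). Isg20 had 11.9 CPM in library 2 and 83.1 in library 1, at -2.73 (interval -4.07 to -1.75). Isg15 had 677 CPM in library 2 and 1926 in library 1, at -1.51 (interval -1.66 to -1.36). Irf1 was the member that went the other way, with 427 CPM in library 2 and 345 in library 1. These values rest on 55 cells of library 2 and 71 of library 1, and the C1q genes moved the same way in them, at 32.7 CPM in library 2 and 112 CPM in library 1. In neutrophils 3 of the 27 members tested were higher in library 2, beside 14.7% of all genes tested, and 2 were lower, beside 9.17%. Rsad2, on the lower side, had 2228 CPM in library 2 and 4018 in library 1. Bst2, Irf7 and Zbp1 stood at log2 ratios of 1.05, 0.93 and 0.54, and these counts are near the shares of all genes. In mast cells 0 of the 13 members tested were higher in library 2, beside 9.47% of all genes tested, and 5 were lower, beside 5.61%. Rsad2, Ifit1 and Usp18 stood at -1.29, -1.15 and -1.13. In B cells 1 of the 5 members tested was higher in library 2, beside 7.95% of all genes tested, and 0 were lower, beside 6.1%. The 1 member was Irf1, with 209 CPM in library 2 and 72.9 in library 1. Few members reached 50 UMIs in mast and B cells, so these counts say little of the list as a whole.

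CD8 T cells went the other way as a block: 25 of the 35 members tested were higher in library 2, beside 19.7% of all genes tested, and 1 was lower, beside 14.8%. The log2 ratio of the member sum, 55.7 per 10000 in library 2 and 46.8 in library 1, was 0.25 (interval 0.24 to 0.26), and it stayed between 0.20 and 0.26 at the other settings. Ifit1 had 224 CPM in library 2 and 147 in library 1, with a ratio of 0.61 (interval 0.55 to 0.68). Irgm1 had 76.2 CPM in library 2 and 50.5 in library 1, at 0.59 (interval 0.48 to 0.71). Igtp had 204 CPM in library 2 and 148 in library 1, at 0.46 (interval 0.40 to 0.53). Ifi44 alone was lower, with 10.3 CPM in library 2 and 14.3 in library 1, at -0.48 (interval -0.74 to -0.22). Both lists were higher, the GTPases and Irf1 at 0.32 and the other members at 0.23. The share of high CD8 T cells was higher in library 2 as well, 37.3% against 32.3%, the only type whose 2 intervals do not overlap. It was higher in library 2 at each of 10 settings, by 3.85 to 5.71 percentage points. Cycling genes (Mki67, Top2a, Birc5) differed between the libraries in these cells, at 390.1 CPM in library 2 and 565 CPM in library 1, and their part in the result was not tested.

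Regulatory T cells resembled CD8 T cells: 19 of the 35 members tested were higher in library 2, beside 12.5% of all genes tested, and 1 was lower, beside 9.55%. The log2 ratio of their member sum, 86.2 per 10000 in library 2 and 71.1 in library 1, was 0.28 (interval 0.25 to 0.31). Ifit3b had 122 CPM in library 2 and 67.6 in library 1, at 0.85 (interval 0.58 to 1.12). Irgm1 had 113 CPM in library 2 and 73.7 in library 1, at 0.61 (interval 0.34 to 0.88). Ifit1 had 398 CPM in library 2 and 260.2 in library 1, at 0.61 (interval 0.47 to 0.75). Stat2 was lower, with 56.4 CPM in library 2 and 75.4 in library 1, at -0.41 (interval -0.76 to -0.08). The cycling genes stood at 204 CPM in library 2 and 452 CPM in library 1 here too. In other types they went the other way, at 218 CPM in library 2 and 91.7 CPM in library 1 in gamma-delta T cells, 211 and 96.1 CPM in cDC2, 56.5 and 25.9 CPM in migratory DC and 138 and 18.9 CPM in B cells. Gamma-delta and other T cells had more lower than higher members: in gamma-delta T cells 3 of the 34 members tested were higher in library 2, beside 9.51% of all genes tested, and 10 were lower, beside 5.64%. In other T cells 4 of the 35 members tested were higher in library 2, beside 8.84% of all genes tested, and 8 were lower, beside 7.09%. Among gamma-delta T cells Ifi44, Ifit2 and Ifit3 stood at -1.85, -1.05 and -0.82, and Iigp1, Gbp2 and Irf1 at 0.37, 0.35 and 0.28. Among other T cells Cmpk2, Ifit2 and Rsad2 stood at -0.66, -0.57 and -0.36, and Gbp2, Irgm1 and Gbp4 at 0.58, 0.35 and 0.35.

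In NK cells 2 of the 35 members tested were higher in library 2, beside 17% of all genes tested, and 12 were lower, beside 7.77%. The log2 ratio of the member sum, 32.3 per 10000 in library 2 and 35.1 in library 1, was -0.12 (interval -0.14 to -0.10). Ifi44 had 76 CPM in library 2 and 109 in library 1, at -0.52 (interval -0.65 to -0.41). Ifit3 had 73 CPM in library 2 and 102 in library 1, at -0.48 (interval -0.61 to -0.36). Usp18 had 115 CPM in library 2 and 148 in library 1, at -0.36 (interval -0.46 to -0.26). The 2 members higher in library 2 were Irgm1 and Irf1. Irgm1 had 41.6 CPM in library 2 and 32.1 in library 1, at 0.37 (interval 0.19 to 0.56), and Irf1 had 146 CPM in library 2 and 128 in library 1, at 0.18 (interval 0.09 to 0.28). With every cell thinned to 3000 UMIs, 1 member was higher and 6 were lower. Macrophage transcripts in cells of other types also differed between libraries: all 3 C1q genes were detected in NK cells of both. Their sum there was 35 CPM in library 2 and 95.9 CPM in library 1, or 0.227% and 0.656% of their macrophage level. In library 2 and library 1 they stood at 72.3 and 122 CPM in CD8 T cells, and at 97.9 and 132 CPM in regulatory T cells. Their sum in gamma-delta T cells was 49.9 CPM for library 2 and 112 CPM for library 1, in cDC2 160.1 and 300.01 CPM, and in mast cells 21.1 and 87.4 CPM. They were lower in library 2 in CD8 and regulatory T cells, where the members were higher, and in NK cells, cDC2 and mast cells, where most called members were lower, and their part in the member ratios was not tested.

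By role, the GTPases had more higher than lower calls, the Ifit family, ISG15 conjugation and antiviral effectors more lower ones, and the sensors about as many of each. Over all pairs of a gene and a type that were tested, 13.2% were higher in library 2 and 9.22% lower. The GTPases were higher in 36 of 89 pairs and lower in 6. The Ifit family was higher in 9 of 53 pairs and lower in 24, and ISG15 conjugation higher in 3 of 35 and lower in 19. The antiviral effectors were higher in 16 of 118 and lower in 41, the sensors higher in 7 of 43 and lower in 8. The transcription factors were higher in 13 of 47 and lower in 15. Counted by the types in which a member was tested, Irf1 was higher in library 2 in 10 of 12 types and lower in 0, so all 15 lower calls of its group came from Irf7, Irf9 and Stat2. Irf7 was higher in 2 and lower in 8 of 13 types. Gbp2 was higher in 7 and lower in 1 of 11 types, and Irgm1 higher in 7 and lower in 0 of 12 types. Gbp3 was higher in 4 and lower in 0 of 11 types, and Gbp4 higher in 3 and lower in 0 of 10 types. Isg15 was higher in 2 and lower in 9 of 12 types, and Rsad2 higher in 2 and lower in 9 of 12 types. Ifit3 was higher in 2 and lower in 8 of 11 types, and Usp18 higher in 0 and lower in 7 of 12 types. Ifi44 was higher in 0 and lower in 6 of 8 types. Few calls were made for Ddx58, higher in 1 and lower in 1 of 10 types, and Samd9l, higher in 2 and lower in 0 of 12 types. Types share their libraries, so agreement across types is not agreement across animals.

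**Figure D4:**
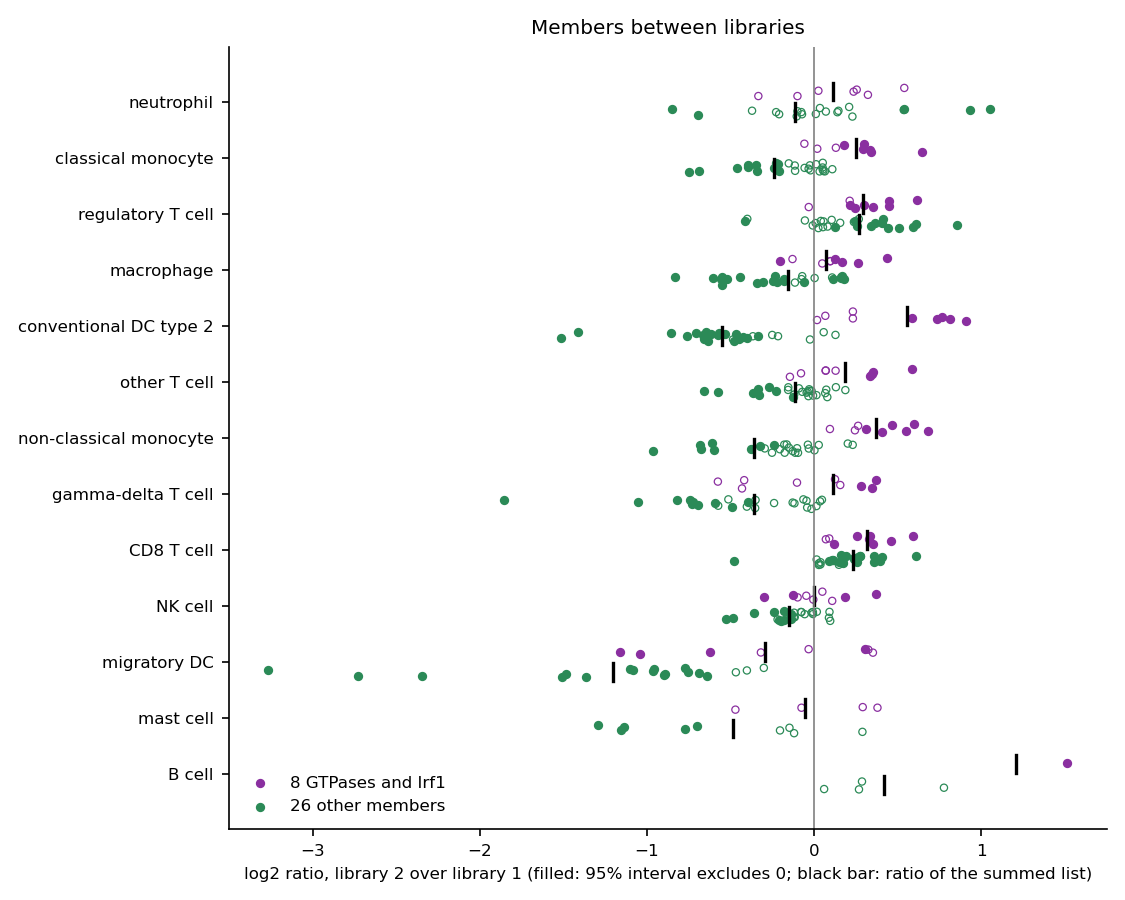
Log2 ratio of library 2 over library 1 (horizontal axis) of each member with at least 50 UMIs in each of 13 types (rows), the 8 GTPases and Irf1 in purple above the 26 other members in green; filled points have 95% intervals that exclude 0 and black bars give the ratio of the summed list. In classical monocytes the bars stand at 0.25 and -0.24, in cDC2 at 0.56 and -0.55, and in CD8 T cells both lie to the right of 0, at 0.32 and 0.23.

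Cells called high on the members were then compared with the other cells of their type for genes that were not used to choose them, so the members' own ratios are left out. A list of 70 further interferon pathway genes was used, of which 32 are known induced genes outside the 35. In macrophages 26 of the 31 induced genes with at least 50 UMIs were over 2 times higher in high cells in both libraries, beside 2.44% of all non-members. The count was 24 of 30 in classical monocytes, beside 3.23%. In lymphocytes they were 23 of 29 in NK cells, beside 1.91%, 25 of 32 in CD8 T cells, beside 1.58%, and 16 of 28 in regulatory T cells, beside 1.34%. The median log2 ratio of these genes was 1.87 in library 2 and 1.92 in library 1 in macrophages, against -0.08 and -0.02 for all non-members, and 1.89 and 1.87 in CD8 T cells, against -0.08 and -0.06. The high cells were thus high for the wider response in each of these 5 types, not for the listed genes alone.

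The genes with the largest ratio of high over other cells, found without a list, were then named. Of the first 10 in each type, 3 in macrophages, 5 in classical monocytes, 6 in NK cells, 5 in CD8 T cells and 4 in regulatory T cells were on the list of 70. In macrophages the first 10 held Cxcl11, Gm6545, Ifi205, Cxcl10, Oasl1, Ifi213, Slfn4, Trim30c and Ifi206. Cxcl10, the chemokine that draws CXCR3-bearing T cells, stood at 2069.7 CPM in high and 194 CPM in other cells over both libraries. In classical monocytes the first 10 were G530011O06Rik, Cxcl10, Gm4951, Cxcl11, Tgtp2, Oasl1, Cxcl9, Serpina3g, Ifi208 and Phf11d, with Cxcl10 at 3268 CPM in high and 113 CPM in other cells. NK cells gave Cxcl10, Ifi207, Oasl2, Slfn5, Cxcl9, Phf11c, Gm6545, Ifi204, Oasl1 and Dhx58, and CD8 T cells Trim30c, Cxcl10, Slfn5, Ifi204, Oas2, Oasl2, Oasl1, Gm6545, Parp12 and A930037H05Rik. Cxcl10 was in all of these lists, at 1069 CPM in high and 52.5 CPM in other cells in NK cells and 677 CPM in high and 37 CPM in other cells in CD8 T cells. In regulatory T cells the first 3 were haemoglobin genes, of which 1495 of the 1496 UMIs in library 1 came from 1 barcode, while library 2 had 2 UMIs. They were followed by Cxcl10, Oasl2, Gm6545, Ifi204, Gm4951, Oas3 and Tgtp2.

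Other genes of the pathway gave log2 ratios of high over other cells on both sides of 0. Socs1, an inhibitor of JAK kinases, stood at 1.82 in library 2 and 3.32 in library 1 in macrophages and 2.32 in library 2 and 3.77 in library 1 in classical monocytes. In CD8 T cells it stood at 0.92 in library 2 and 0.89 in library 1. Dhx58 (LGP2), a sensor related to Ddx58, stood at 2.52 in library 2 and 2.33 in library 1 in CD8 T cells. The receptor genes showed little difference in CD8 T cells, with Ifnar1 at 0.16 in library 2 and 0.14 in library 1 and Ifngr1 at -0.01 in library 2 and 0.06 in library 1. Jak1 stood at 0.03 in library 2 and 0.07 in library 1. Ifng itself was at 0.07 in library 2 and -0.14 in library 1 there, close to 0 on both sides, while in NK cells it was at 0.72 in library 2 and 1.47 in library 1. Irf8 went the other way in CD8 T cells, at -0.96 in library 2 and -0.56 in library 1. For CD8 T cells, C1q transcripts stood at 78.4 CPM in high and 56.2 CPM in other cells of library 2, and 135 and 126 CPM in those of library 1. For NK cells they stood at 32.7 CPM in high and 39.2 CPM in other cells of library 2, and 122 and 96.2 CPM in those of library 1. For macrophages they stood at 13412 CPM in high and 15774 CPM in other cells of library 2, and 12514 and 14764 CPM in those of library 1, and their part in these ratios was not tested.

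**Figure D5:**
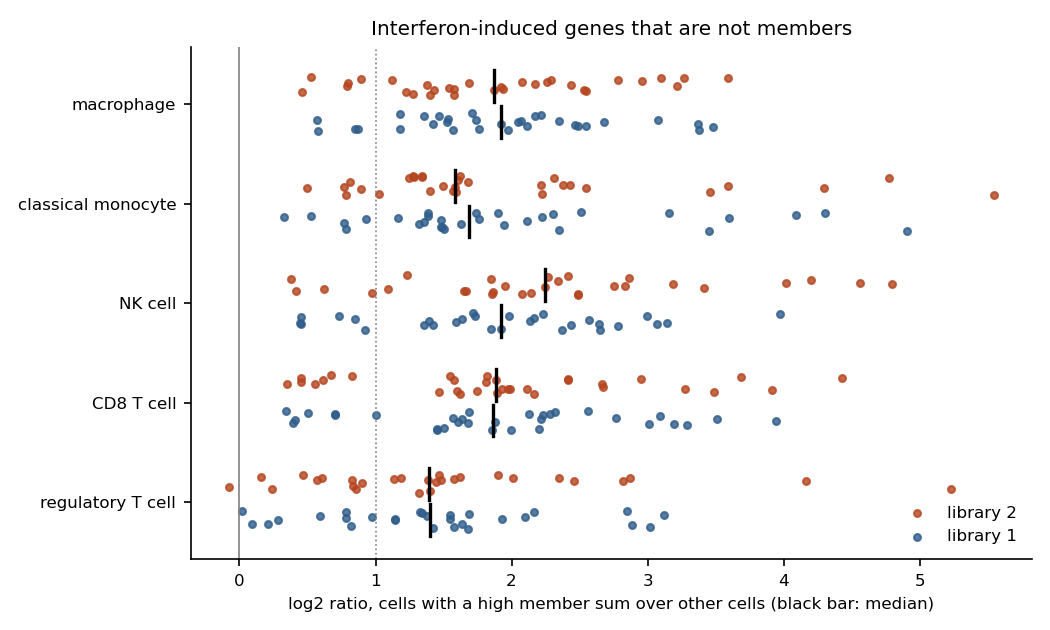
Log2 ratio of cells with a high member sum over the other cells of the same type and library (horizontal axis) for interferon-induced genes that are not members and have at least 50 UMIs; each point is a gene, library 2 above library 1, black bars are medians and the dotted line marks a ratio of 2. Medians lie between 1.39 in regulatory T cells and 2.25 in NK cells for library 2.

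Of the interferon genes themselves, only Ifng was abundant, with 13932 UMIs in library 2 and 15132 in library 1. The 11 other interferon genes of the list had 30 UMIs in library 2 and 19 in library 1 between them, and 6 of them had none in either. Few type I or type III transcripts were thus counted for the listed genes, and of the Ifna genes only Ifna1, Ifna2, Ifna4, Ifna5 and Ifna13 were listed. Ifnb1 gave 24 of the 30 in library 2 and 7 of the 19 in library 1. All 24 in library 2 were in macrophages, in 1.09% of them. In library 1, 5 of the 7 were in macrophages, in 0.143% of them. Ifng was made by lymphocytes: CD8 T cells had 497 CPM in library 2 and 436 in library 1, and NK cells 207 CPM in library 2 and 97.1 in library 1. Regulatory T cells had 124 CPM in library 2 and 76 in library 1, against 8.12 CPM in library 2 and 7.53 in library 1 in macrophages. On the log2 scale the ratio of Ifng was 0.19 (interval 0.15 to 0.23) in CD8 T cells, 1.09 (interval 1.00 to 1.19) in NK cells and 0.71 (interval 0.44 to 0.97) in regulatory T cells. Ifng was thus higher in library 2, as was the sum of Irf1 and the GTPases in 9 of 13 types. That sum was higher in CD8 and regulatory T cells, but within counting error in NK cells, at -0.00096. Whether Ifng and these genes go together across animals was not tested.

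Further genes of the pathway were called in both directions between libraries. In macrophages 13 of the 58 pathway genes tested were higher in library 2 and 5 lower, beside the same 13.5% and 10.3% of all genes. In classical monocytes 11 of 57 were higher and 10 lower, beside 12.4% and 9.23% of all genes. In NK cells 8 of 55 were higher and 15 lower, beside 17% and 7.77%. In CD8 T cells 29 of 56 were higher and 8 lower, beside 19.7% and 14.8%, and in regulatory T cells 22 of 54 and 1, beside 12.5% and 9.55%. A pair of chemokines of macrophages parted in direction. Cxcl9, a target chiefly of interferon-gamma, had 1097 CPM in library 2 and 801 in library 1, at 0.45 (interval 0.40 to 0.50). Cxcl10 had 750.2 CPM in library 2 and 1328 in library 1, at -0.82 (interval -0.88 to -0.77). The immunoproteasome and peptide transport genes Psmb9, Psmb8 and Tap1 stood at 0.33, 0.23 and 0.20 in macrophages. Of the 32 induced genes outside the members, 9 were higher and 5 lower there, beside the same 13.5% and 10.3%. Socs1 stood at -0.20 (interval -0.41 to 0.005) in these cells. Which interferon acted was not tested.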

How the data were processed

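Live CD45-positive lung cells of 1 Siah1a/2 KO and 1 WT sample were measured by droplet single-cell RNA sequencing. The deposited values are UMI counts per gene and barcode, made with Cell Ranger 6.1.2 on mm10, per the submitters' processing notes, in 1 joint matrix that was not normalized. No columns of values were left unused. Barcodes under 500 genes or above 10% mitochondrial UMIs were dropped, which left 6113 cells in library 2 and 8066 in library 1. Cells were named by marker sums per 10000 UMIs (8 for T and B cells, 2 for NK cells, 20 for macrophages, neutrophils and mast cells, 3 for classical monocytes), set after the markers' distributions were seen and without the members. No doublet caller was run, and cells of 2 lineages were left out of the types. Cells of 1 further gate, which also counted as a sign of the myeloid lineage, and a few single genes are not reported here. The members and lists were chosen with earlier results of these data known. All 35 members are accounted for: in each role group the 3 with the most UMIs are given in every type, and between libraries the 3 largest ratios each way among those whose interval excludes 0. Of the non-members, the pathway list and the 10 genes with the largest ratio of high over other cells are named. Ratios used 0.5 added UMIs and genes with at least 50 UMIs, with exact conditional binomial intervals at 95%; levels have Poisson and shares Clopper-Pearson intervals, which cover counting error only. Cells were thinned to 3000 UMIs (seed 1). Depth was 59459790 UMIs in library 2 and 86227008 in library 1. The alternatives were another cell filter, doubled gate levels, cells of 2 lineages in the larger type, another scale, thinning, the sum without Isg15, other levels for a high sum and another seed. Scripts were tested on simulated data with known ratios. Python 3.11.15, numpy 2.4.6, scipy 1.17.1, pandas 2.3.3 and matplotlib 3.10.9 were used.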

Additional observations from a re-analysis of the deposited data

Results flagged for a closer look

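The summed members other than the GTPases and Irf1 went in opposite directions in different types, on the log2 scale of library 2 over library 1. They stood at 0.23 in CD8 T cells and 0.27 in regulatory T cells, and at -0.16 in macrophages, -0.24 in classical monocytes, -0.55 in cDC2 and -0.15 in NK cells. Each library is 1 sample, and the difference between types was not tested.

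Cells that met no gate carried many member transcripts, 108 per 10000 UMIs in library 2 and 119 in library 1, more than all gated types except neutrophils and classical monocytes. Barcodes left out by the cell filter held 32.7 per 10000 in library 2 and 46.4 in library 1. Neither kind of barcode enters a comparison above.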

How the results depend on the processing

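Values are given as library 2 over library 1 on the log2 scale. In macrophages the ratio of the member sum was -0.0095 with gate levels doubled, 0.029 with cells of 2 lineages in the larger type, -0.13 on the median scale, -0.13 with cells thinned and -0.083 without Isg15. Members higher there were 16 with cells of 2 lineages in the larger type and 4 with cells thinned. Members lower were 10 with gate levels doubled, 10 with cells of 2 lineages in the larger type and 11 thinned. In classical monocytes the same settings gave -0.011, -0.15, -0.16, -0.088 and -0.086, and with gate levels doubled 10 members were higher and 4 lower. In NK cells the sum stood at -0.094 (doubled), -0.15 (larger), -0.17 (median scale) and -0.095 (thinned), with 4 members higher under doubled levels, and 1 higher and 6 lower when thinned. In CD8 T cells it stood at 0.22, 0.20, 0.23 and 0.22 under these 4 settings. The cause of these shifts was not tested. The share of high cells over all 15 types was 40.2% in library 2 and 39.7% in library 1 with cells of 2 lineages in the larger type. It was 53.0% and 52.6% at 10 UMIs or more, 30.3% and 29.96% at 20 or more, and 19.5% and 19.5% at 30 or more, a level chosen after seeing the data. It was 47.6% in library 2 and 48.5% in library 1 for the other 26 members at 8 or more, and 36.1% and 35.05% without Isg15. The sum of the other 26 members in macrophages lay between -0.19 and -0.01 over 5 settings, and at one of them it was within counting error.

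No paired analysis was possible because each group in the labels has 1 sample and no label ties a barcode ending to a sample. With 1 library of each kind, no replicate was left out. Depth limits B and mast cells most, where 5 and 13 members reached 50 UMIs, while cDC1 and pDC were left out of the comparison between libraries because they had under 50 cells in a library.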

Other observations

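The chains of the interferon-gamma receptor were spread unequally over cell types. Ifngr2, a chain of the interferon-gamma receptor, stood at 5.44 CPM in CD8 T cells of library 2 and 7.8 CPM in those of library 1, and at 215 and 205 CPM in macrophages of library 2 and library 1. Ifngr1, the other chain, was higher in library 2 in macrophages (log2 ratio 0.12), classical monocytes (0.22), NK cells (0.24), CD8 T cells (0.29) and regulatory T cells (0.27). Among the inhibitors of signalling, Socs1 stood at 0.51 and Socs3 at 0.42 in CD8 T cells on the same scale.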
